A study of Homo sapiens with 39 samples.

Results

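NRF2, encoded by NFE2L2, and 8 genes of glutathione, thioredoxin, quinone and heme metabolism were followed across all 13 groups of an RNA-seq series on the C4-2B prostate cancer cell line. The 9 genes (NFE2L2, GCLC, GCLM, SLC7A11, GSR, TXNRD1, SRXN1, NQO1 and HMOX1) were taken by symbol and matched to the 63187 gene IDs of the count table, where each matched 1 ID. All 9 passed the filter on low counts in both experiments. C4-2B is an androgen-independent, castration-resistant line, and every group comes from this 1 line. In the panel, cells were treated for 5 days with DMSO vehicle, abiraterone acetate at 5 µM, enzalutamide at 20 µM, olaparib at 1 µM, or talazoparib at 10 nM, or with 1 of 2 combinations at the same doses, abiraterone with olaparib and enzalutamide with talazoparib. In the time course, cells received DMSO or olaparib at 1 µM or 5 µM for 1 day or 5 days. Each group had 3 libraries, which makes 21 in the panel (replicates A, B and C) and 18 in the time course (replicates 1, 2 and 3). Abiraterone, which blocks androgen synthesis, and enzalutamide are called antiandrogenic drugs here, and olaparib and talazoparib are PARP inhibitors (PARPi).

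Total counts per library lay between 26932205 and 49833473 in the panel and between 34214001 and 44893664 in the time course. No pair of replicates agreed within sampling noise, with a chi-square per degree of freedom between 2.11 and 5.63 over 39 pairs. The labels do not say whether replicates came from separate cultures, so p-values measure the spread between these libraries, which may be technical. The C4-2B markers KLK3, KLK2, TMPRSS2, HOXB13, FOXA1, FOLH1 and STEAP2 were expressed in every library. Of 8 markers of other cell types, CD3E, DCN and PECAM1 were at or near 0 in all libraries. Their summed level, carried mainly by VWF and COL1A1, ranged from 22.8 to 47.3 counts per 1000000 counts of the library (CPM). It was 46.3 to 47.3 CPM with abiraterone plus olaparib, 41.6 to 43.8 CPM with abiraterone and 39.5 to 41.1 CPM with enzalutamide plus talazoparib, against 25.6 to 30.5 CPM in panel DMSO. It was 31.3 to 31.8 CPM with enzalutamide, also above panel DMSO in every library, and 29.2 to 31.3 CPM with olaparib and 27 to 28.8 CPM with talazoparib, which overlap panel DMSO. On day 1 of the time course it was 33.5 to 37.6 CPM with olaparib at 5 µM and 29 to 30.3 CPM at 1 µM, against 23 to 24.6 CPM in DMSO. The day 5 sum was 24.6 to 26.7 CPM at 5 µM and 25.4 to 26 CPM at 1 µM, against 22.8 to 23.9 CPM in DMSO, so that it lay above DMSO in every olaparib library of the time course. Its part in the results below was not tested. In bulk RNA, fewer cells of a kind and less RNA per cell cannot be told apart.

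NRF2 is a transcription factor that is held at a low level by KEAP1, which marks it for degradation, and it accumulates when electrophiles or oxidants modify KEAP1. It then pairs with small MAF proteins and binds antioxidant response elements at genes that make and recycle glutathione, reduce thioredoxin and detoxify quinones. Because much of this control acts on the protein, the NFE2L2 transcript is not a measure of NRF2 activity. SLC7A11 imports cystine in exchange for glutamate, glutamate-cysteine ligase (GCLC, the catalytic subunit, and GCLM, the modifier subunit) makes the first intermediate of glutathione, and GSR returns oxidized glutathione to its reduced form. TXNRD1 reduces thioredoxin, SRXN1 repairs overoxidized peroxiredoxins, NQO1 reduces quinones, and HMOX1 breaks down heme.

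In GRCh38, the protein-coding genes lie at chr2:177218667-177392756 (NFE2L2, minus strand), chr6:53497341-53616970 (GCLC, minus), chr1:93885199-93909456 (GCLM, minus), chr4:138164097-138242349 (SLC7A11, minus), chr12:104215779-104350307 (TXNRD1, plus), chr20:646615-653200 (SRXN1, minus), chr16:69706996-69726668 (NQO1, minus) and chr22:35380361-35394214 (HMOX1, plus).

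RefSeq promoter windows of GRCh38.p14, from 250 bases before to 50 bases after a start, were matched for 6 of the 9 genes in 8 windows, with SLC7A11, GSR and HMOX1 unmatched. These windows were searched on both strands for the antioxidant response element core TGACNNNGC, which 13.3% of all 35116 windows hold, and for the same core with an A after it, which 3.18% hold and which overlaps the core by design. GCLM and TXNRD1 had a match, and GCLC, NQO1, SRXN1 and NFE2L2 had none of these letters in their windows. The 4 sites below are all the matches in these windows, and each is given 5′ to 3′ on the gene's strand with the match in capitals:
GCLM, 35 bases before the start, chr1:93909446-93909475, minus strand: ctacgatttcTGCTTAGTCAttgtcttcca
TXNRD1, inner start, 103 bases before it, chr12:104286919-104286948, plus strand: agtggatttcTGCTTTGTCAttctgactct
TXNRD1, outer start, 99 bases before it, chr12:104215670-104215699, plus strand: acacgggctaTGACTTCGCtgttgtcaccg
TXNRD1, outer start, 8 bases before it, chr12:104215761-104215790, plus strand: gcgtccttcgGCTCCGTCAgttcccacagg
The GCLM site and the inner TXNRD1 site read the element on the opposite strand and include the extra A. The annotation used here places the GCLM site, the inner TXNRD1 site and the site 8 bases before the outer start partly or wholly within a 5′ UTR exon of a transcript of the same gene, while the site 99 bases before the outer start overlaps no transcript. A match is a description of the sequence and not a measured binding site.

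In DMSO cells the genes differed widely in level. In CPM per kilobase of the canonical transcript, panel DMSO libraries had 124 ± 4.07 for GSR (SD, n = 3), 115 ± 0.643 for TXNRD1 and 78.3 ± 0.957 for NQO1. Lower levels per length were found for SRXN1 (39 ± 1.4), NFE2L2 (33.1 ± 1.02), SLC7A11 (19.2 ± 0.84), GCLC (14.5 ± 0.625), GCLM (12.9 ± 0.292) and HMOX1 (5.73 ± 0.0629). No neighbors in this order overlapped between libraries. In time course DMSO the order of the lower genes was different, with GCLM at 14.3 ± 0.359, GCLC at 12.8 ± 0.288 and SLC7A11 at 11.4 ± 0.334 on day 1, again without overlap. All other levels below are CPM scaled by TMM within each experiment, without length, and serve to compare a gene between groups.

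The question here was how these genes respond to each drug, to the combinations, and to olaparib over dose and time. The genes moved in both directions in most treatments. A gene was called where its adjusted p was below 0.05 (edgeR, quasi-likelihood, adjusted over all genes tested). Abiraterone called 2 members higher and 6 lower (of all genes, 52.9% were called), and enzalutamide 4 higher and 4 lower (53.3% of all genes). Olaparib called 1 higher and 4 lower (35.6%), and talazoparib 0 higher and 4 lower (33.8%). For abiraterone plus olaparib 2 were higher and 7 lower (62.2%), and for enzalutamide plus talazoparib 2 were higher and 7 lower (62.4%). These backgrounds are high, and the median absolute log2 fold change of the 9 genes was below that of all genes in 5 of these 6 comparisons, for example 0.167 against 0.271 for abiraterone. The exception was abiraterone plus olaparib, with 0.378 against 0.364. The 9 genes were not matched to all genes by count level. The 6 comparisons share the same 3 DMSO libraries.

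**Figure D1:**
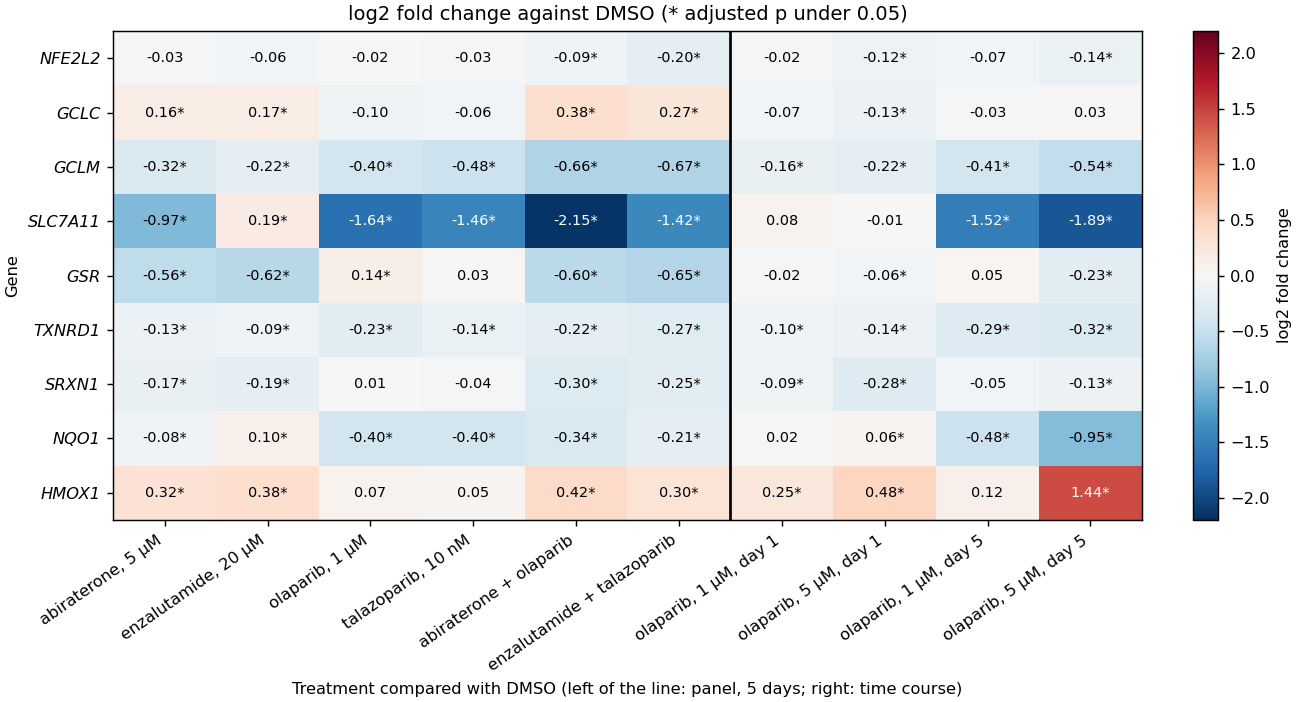
log2 fold change against DMSO for the 9 genes (rows) and the 10 treatments (columns; panel left of the line, time course right of it), with the value printed in each cell and * for an adjusted p under 0.05. SLC7A11 ranges from -2.15 with abiraterone plus olaparib to 0.19 with enzalutamide, and HMOX1 reaches 1.44 with olaparib at 5 µM on day 5.

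SLC7A11, the cystine importer, had the largest log2 fold change of the 9 genes in 5 of the 6 panel treatments, all but enzalutamide, where that of GSR was largest. Its level in the DMSO libraries was 190, 190 and 176 CPM. It was 61.1, 61.4 and 56.1 CPM with olaparib and 60.5, 68.9 and 72.5 CPM with talazoparib, all far below DMSO. These are log2 fold changes of -1.64 ± 0.071 (SE, adjusted p = 1.59e-11, edgeR) and -1.46 ± 0.069 (adjusted p = 8.03e-11). The 2 antiandrogenic drugs moved it in different directions. With abiraterone the libraries held 89.2, 97.2 and 97.1 CPM, a log2 fold change of -0.97 ± 0.068 (adjusted p = 2.72e-09, edgeR). With enzalutamide they held 218, 195 and 220 CPM, which lay above every DMSO library, and the log2 fold change was 0.19 ± 0.065 (adjusted p = 0.025). This rise was small, and the call was lost without DMSO replicate C (adjusted p = 0.112), enzalutamide replicate A (0.0859) or enzalutamide replicate C (0.101). Compared directly, SLC7A11 was 2.23-fold higher with enzalutamide than with abiraterone (log2 difference 1.16 ± 0.068, adjusted p = 2.98e-09), at doses that differ. The lowest levels in the panel were those of abiraterone plus olaparib, at 39.1, 41.6 and 44.6 CPM (-2.15 ± 0.074, adjusted p = 1.03e-13). Enzalutamide plus talazoparib gave 65.6, 69.6 and 73 CPM (-1.42 ± 0.069, adjusted p = 1.25e-11), which overlapped with talazoparib alone.

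**Figure D2:**
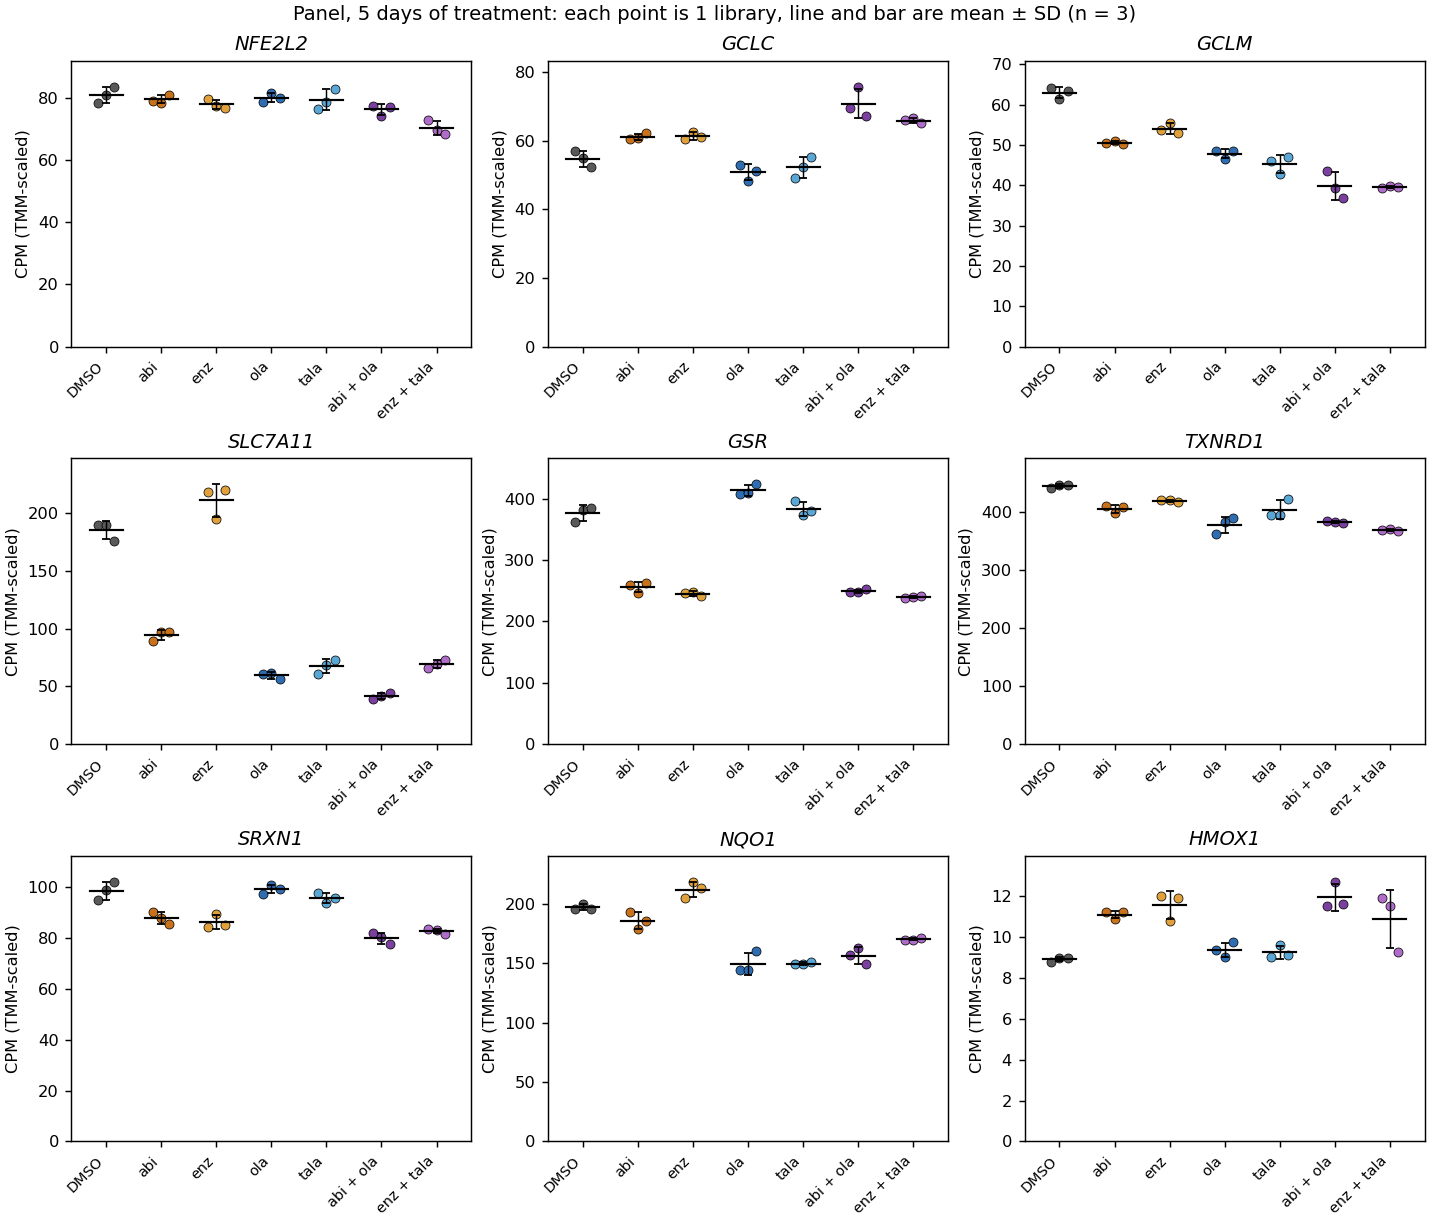
Level of each gene (CPM, TMM-scaled, axis from 0) in the 21 panel libraries, 1 point per library, with the mean and SD of each group of 3. SLC7A11 separates into high (DMSO, enzalutamide), middle (abiraterone) and low groups (all groups with a PARPi), and GSR into groups with an antiandrogenic drug (238 to 262 CPM) and without one (362 to 423 CPM).

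GCLC and GCLM, the subunits of the rate-limiting enzyme of glutathione synthesis, moved in opposite directions in the panel groups with an antiandrogenic drug. GCLM was lower in every treatment of the panel, and GCLC was higher in every treatment with an antiandrogenic drug. GCLM fell from 64.1, 61.4 and 63.4 CPM in DMSO to 50.6, 51 and 50.2 with abiraterone (log2 fold change -0.32 ± 0.044, adjusted p = 1.45e-07, edgeR) and 53.6, 55.5 and 52.9 with enzalutamide (-0.22 ± 0.043, adjusted p = 4.1e-05). It fell to 48.4, 46.5 and 48.5 CPM with olaparib (-0.40 ± 0.043, adjusted p = 3.32e-09) and to 46, 42.7 and 47 with talazoparib (-0.48 ± 0.043, adjusted p = 7.93e-11). The combinations had the lowest mean GCLM levels of the panel. They were 43.5, 39.3 and 36.8 CPM with abiraterone plus olaparib (-0.66 ± 0.045, adjusted p = 4.52e-15) and 39.4, 39.9 and 39.5 CPM with enzalutamide plus talazoparib (-0.67 ± 0.044, adjusted p = 1.57e-15). No treated library of the panel overlapped with DMSO for GCLM.

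GCLC had 57.1, 54.9 and 52.3 CPM in the DMSO libraries. It was 60.5, 60.7 and 62.3 CPM with abiraterone (log2 fold change 0.16 ± 0.044, adjusted p = 0.00219, edgeR) and 60.5, 62.6 and 61 CPM with enzalutamide (0.17 ± 0.044, adjusted p = 0.00142). Both of these groups lay just above DMSO. With a PARPi alone GCLC was not called, at 52.9, 48.4 and 51.3 CPM with olaparib (-0.10 ± 0.045, adjusted p = 0.068) and 49.3, 52.4 and 55.4 CPM with talazoparib (-0.059 ± 0.044, adjusted p = 0.332). In 5 of 13 alternatives the olaparib value was called lower, among them the runs without DMSO replicate C (adjusted p = 0.0276) or olaparib replicate A (0.0212) and under total-count scaling (0.00891). The highest GCLC levels were 69.6, 75.7 and 67.4 CPM with abiraterone plus olaparib (0.38 ± 0.044, adjusted p = 2.58e-09) and 66, 66.6 and 65.1 CPM with enzalutamide plus talazoparib (0.27 ± 0.043, adjusted p = 1.61e-06).

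The ratio of GCLC to GCLM levels in the same library put their relative level into 1 number. It was 0.869 ± 0.0388 in panel DMSO (SD, n = 3), 1.21 ± 0.0279 for abiraterone, 1.14 ± 0.0142 for enzalutamide, 1.06 ± 0.0264 for olaparib and 1.16 ± 0.0791 for talazoparib. It reached 1.79 ± 0.168 for abiraterone plus olaparib and 1.66 ± 0.0141 for the other combination. The lowest ratio in either combination was 1.6, above the highest ratio with any single drug, which was 1.24. The ratio compares transcript counts without length and describes neither protein nor enzyme subunits.

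**Figure D3:**
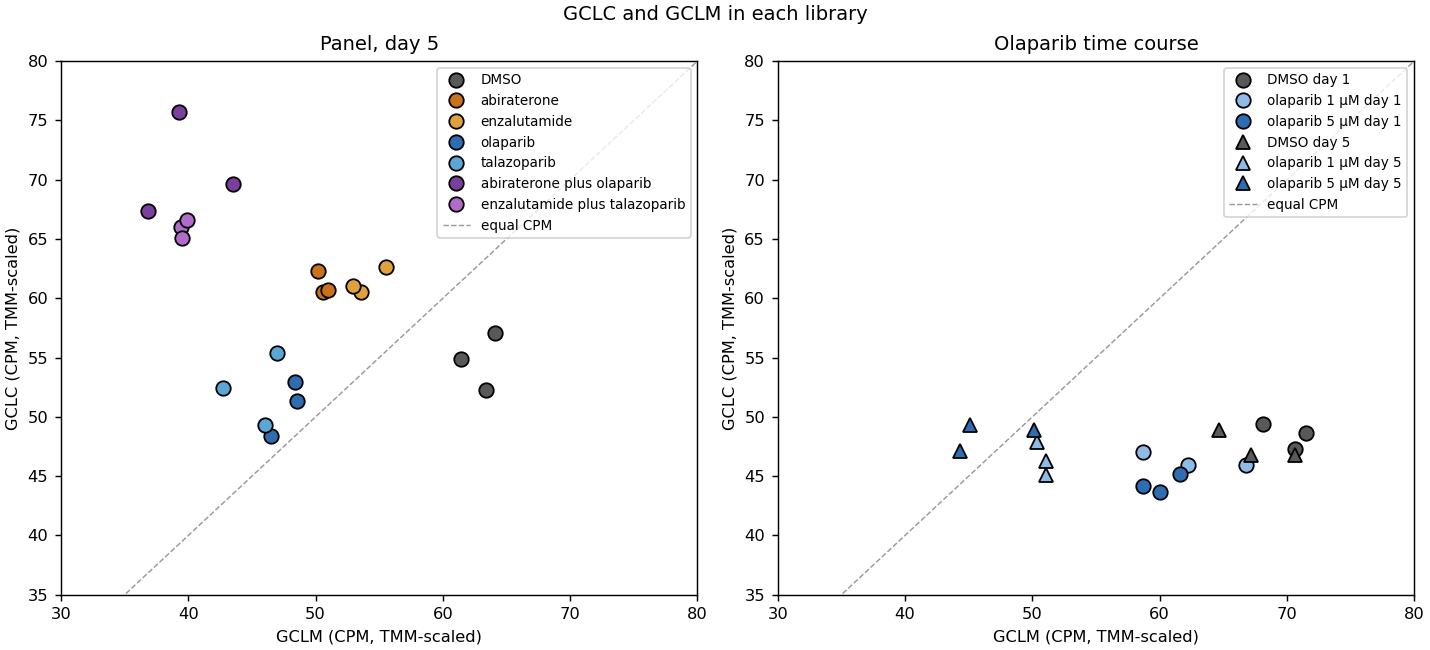
GCLC against GCLM (both CPM, TMM-scaled, axes not from 0) in each library, panel left and time course right, with a dashed line where the CPM are equal. In the panel, DMSO lies at high GCLM and the combinations at low GCLM and high GCLC, and in the time course olaparib moves the libraries along the GCLM axis with GCLC between 43.7 and 49.4 CPM.

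Among the recycling genes, GSR (glutathione reductase, chr8:30678066-30727846, minus strand) was lower in every group with an antiandrogenic drug. DMSO libraries had 362, 382 and 385 CPM, abiraterone 259, 246 and 262 CPM and enzalutamide 246, 248 and 241 CPM. GSR fell by 32.1% with abiraterone (log2 fold change -0.56 ± 0.028, adjusted p = 9.95e-19, edgeR) and fell by 34.8% with enzalutamide (-0.62 ± 0.028, adjusted p = 4.85e-20). Both combinations were at the level of the antiandrogenic drug, with 248, 247 and 252 CPM for abiraterone plus olaparib (-0.60 ± 0.028, adjusted p = 9.83e-20) and 238, 240 and 242 CPM for enzalutamide plus talazoparib (-0.65 ± 0.028, adjusted p = 7.29e-21). Olaparib alone raised GSR slightly, to 408, 409 and 423 CPM (0.14 ± 0.027, adjusted p = 0.000136). With talazoparib it was 396, 373 and 380 CPM and not called (0.026 ± 0.027, adjusted p = 0.517).

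TXNRD1, the cytosolic thioredoxin reductase, was lower in all 6 treatments of the panel by small amounts. Its levels were 442 to 447 CPM in DMSO and 417 to 421 CPM with enzalutamide, the smallest fall (-0.085 ± 0.026, adjusted p = 0.00534, edgeR). Enzalutamide plus talazoparib gave the largest fall, to 368 to 371 CPM (-0.27 ± 0.026, adjusted p = 3.12e-11). The other log2 fold changes were -0.13 ± 0.026 for abiraterone, -0.23 ± 0.026 for olaparib, -0.14 ± 0.026 for talazoparib and -0.22 ± 0.026 for abiraterone plus olaparib, with adjusted p of 5.67e-05 or less. Under total-count scaling the enzalutamide call was lost (adjusted p = 0.261), as it was without a filter on low counts (0.0799).

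SRXN1, sulfiredoxin, was called lower in the 4 panel groups that received an antiandrogenic drug. It had 95, 99.1 and 102 CPM in DMSO, 90.5, 87.9 and 85.6 with abiraterone (-0.17 ± 0.033, adjusted p = 6.7e-05, edgeR) and 84.6, 89.6 and 85.3 with enzalutamide (-0.19 ± 0.033, adjusted p = 8.46e-06). The combinations had 81.9, 80.6 and 77.6 CPM (-0.30 ± 0.034, adjusted p = 1.05e-09) and 83.5, 83.1 and 81.8 CPM (-0.25 ± 0.033, adjusted p = 3.06e-08). For olaparib and talazoparib alone the log2 fold changes were 0.0069 ± 0.033 and -0.044 ± 0.033 (adjusted p = 0.904 and 0.333). Total-count scaling called SRXN1 lower with talazoparib too (adjusted p = 0.0324).

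NQO1, the quinone reductase often used as a readout of NRF2, was lower with each PARPi. Its levels were 196, 200 and 196 CPM in DMSO, 144, 144 and 160 CPM with olaparib and 149, 149 and 151 CPM with talazoparib. The log2 fold changes were -0.40 ± 0.035 and -0.40 ± 0.035 (adjusted p = 2.32e-11 and 3.97e-11, edgeR), about equal for the 2 drugs. The antiandrogenic drugs moved NQO1 little. With abiraterone it was 193, 179 and 186 CPM (-0.085 ± 0.035, adjusted p = 0.039), and with enzalutamide 205, 218 and 213 CPM (0.10 ± 0.034, adjusted p = 0.0105). The abiraterone call was lost in 10 of 13 alternatives, among them each of the runs without DMSO replicate B or C or abiraterone replicate B or C (adjusted p = 0.115, 0.0579, 0.203 and 0.119), and the enzalutamide call without enzalutamide replicate B (0.0544). The difference between the antiandrogenic drugs was called, with NQO1 higher in enzalutamide by 0.19 ± 0.035 (log2, adjusted p = 0.000103). In the combinations the mean NQO1 level lay between those of the single drugs, at 157, 163 and 149 CPM (-0.34 ± 0.035, adjusted p = 3.17e-10) and 170, 170 and 171 CPM (-0.21 ± 0.035, adjusted p = 2.06e-06).

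HMOX1, heme oxygenase 1, was the lowest member in level, and it was higher in the 4 groups with an antiandrogenic drug. It had 8.8, 8.96 and 8.97 CPM in DMSO, 11.2, 10.9 and 11.2 CPM with abiraterone (0.32 ± 0.083, adjusted p = 0.00137, edgeR) and 12, 10.8 and 11.9 CPM with enzalutamide (0.38 ± 0.081, adjusted p = 0.000165). The combinations had 11.5, 12.7 and 11.6 CPM (0.42 ± 0.082, adjusted p = 3.02e-05) and 11.9, 11.5 and 9.28 CPM (0.30 ± 0.081, adjusted p = 0.00175). In the last of these, replicate C lay just above the DMSO libraries. With olaparib and talazoparib the levels were 9.04 to 9.74 and 9.01 to 9.63 CPM, and HMOX1 was not called (adjusted p = 0.548 and 0.669).

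NFE2L2 itself had small changes, with log2 fold changes between -0.20 and -0.017 in the panel. Its levels in the single-drug groups and DMSO lay between 76.5 and 83.4 CPM, and no single drug of the panel called it. Abiraterone plus olaparib had 77.4, 74.1 and 77.1 CPM against 78.4, 80.8 and 83.4 CPM in DMSO (-0.088 ± 0.035, adjusted p = 0.031, edgeR). This call was lost without DMSO replicate B (adjusted p = 0.0524), DMSO replicate C (0.143) or combination replicate B (0.146), under total-count scaling (0.24), without a filter on low counts (0.148) and with only the groups compared in the fit (0.0687). Enzalutamide plus talazoparib had 72.7, 69.5 and 68.4 CPM, and fell by 13.2% (-0.20 ± 0.035, adjusted p = 5.04e-06).

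The departure of a combination from its drugs was tested as an interaction, which compares the measured log2 fold change with the sum of those of the single drugs. For abiraterone plus olaparib 4 members were above the sum and 2 below it, where 12.8% of all genes were called. SLC7A11 fell less than the sum. Abiraterone and olaparib add to -2.61, the combination had -2.15, and the departure was 0.46 ± 0.10 (95% interval 0.24 to 0.68, adjusted p = 0.00744, edgeR). GCLC rose more than the sum, with 0.059 for the sum and 0.38 measured, a departure of 0.32 ± 0.062 (interval 0.19 to 0.45, adjusted p = 0.000526). GSR was below the sum, with a departure of -0.17 ± 0.039 (adjusted p = 0.00226). Olaparib alone gave GSR a log2 fold change of 0.14, and olaparib on top of abiraterone one of -0.038 (adjusted p = 0.339). TXNRD1 fell less than the sum, with a departure of 0.15 ± 0.037 (adjusted p = 0.00479). NQO1 (departure 0.15 ± 0.049, adjusted p = 0.0355) and SRXN1 (-0.14 ± 0.047, adjusted p = 0.0417) were near the threshold. The SRXN1 call was lost without any 1 of 10 of the 12 libraries (adjusted p 0.0514 to 0.129), all but DMSO replicate C and abiraterone replicate C, and in 4 other alternatives. Total-count scaling was one of these (adjusted p = 0.0738) and made the split 4 above and 1 below. The NQO1 call was lost without any 1 of 8 libraries (0.0501 to 0.136), namely DMSO B or C, abiraterone B or C, olaparib A or B, and combination A or B, and with only these groups in the fit (0.064). In that last fit the SRXN1 call was lost as well (0.0764), and 4 members were called instead of 6. GCLM, HMOX1 and NFE2L2 were not called, with departures of 0.056 ± 0.063, 0.034 ± 0.12 and -0.044 ± 0.05.

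For enzalutamide plus talazoparib, edgeR called 0 of the 9 departures (12.6% of all genes were called). At an unadjusted p under 0.05 there were 2, GCLC and NFE2L2, beside 4731 of all 18625 genes tested. DESeq2's Wald test called 1. GCLC was again above the sum, by 0.16 ± 0.061 (95% interval 0.036 to 0.29, adjusted p = 0.0828). It passed the threshold with DESeq2 (adjusted p = 0.0447), under total-count scaling (0.0359), with a stricter filter on low counts (0.0382), and without DMSO replicate C (0.0474) or talazoparib replicate C (0.015). NFE2L2 was below the sum, with a departure of -0.12 ± 0.049 (interval -0.22 to -0.02, adjusted p = 0.111). SLC7A11 had a departure of -0.15 ± 0.097 (interval -0.35 to 0.059, adjusted p = 0.383), and the interval includes 0. The other 6 departures lay between -0.13 (HMOX1, adjusted p = 0.506) and 0.081 (NQO1, adjusted p = 0.311). The departures of the 2 combinations share the same DMSO libraries, and the difference between them was not tested.

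**Figure D4:**
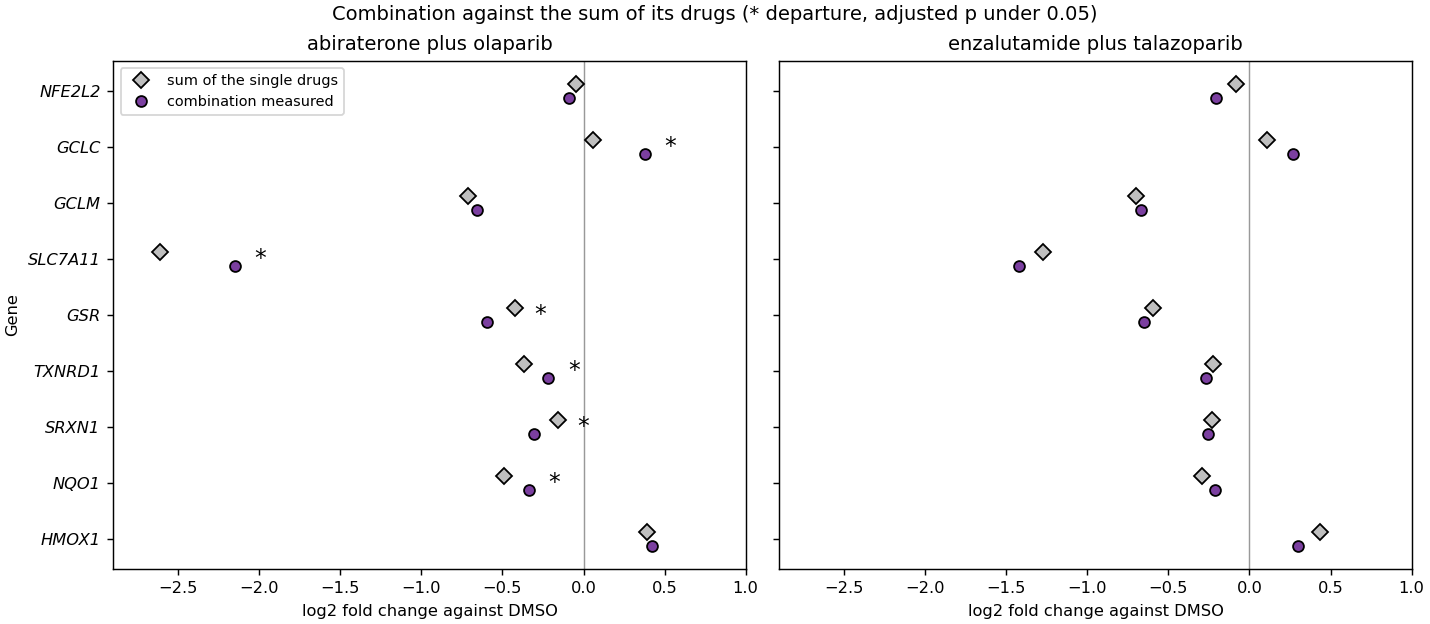
For each gene, the sum of the log2 fold changes of the single drugs (diamonds) and the log2 fold change of the combination (circles), abiraterone plus olaparib left and enzalutamide plus talazoparib right, with * where the departure had an adjusted p under 0.05. The widest gap is that of SLC7A11 with abiraterone plus olaparib, -2.61 for the sum and -2.15 measured.

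Adding the second drug was also compared with each single drug. Olaparib on top of abiraterone called 1 member higher and 5 lower (29.2% of all genes). GCLC was the one that was higher (0.22 ± 0.044, adjusted p = 0.000218, edgeR), and SLC7A11 fell most (-1.18 ± 0.076, adjusted p = 4.98e-09), followed by GCLM (-0.34 ± 0.046, adjusted p = 3.27e-07) and NQO1 (-0.25 ± 0.035, adjusted p = 9.68e-07). SRXN1 (-0.14 ± 0.034, adjusted p = 0.00226) and TXNRD1 (-0.083 ± 0.026, adjusted p = 0.0145) were lower too, TXNRD1 at an adjusted p of 0.0505 without a filter on low counts. NFE2L2 (-0.061 ± 0.036), GSR (-0.038 ± 0.028) and HMOX1 (0.11 ± 0.081) were not called, and total-count scaling called NFE2L2 lower (0.0475). Abiraterone on top of olaparib called 2 higher and 4 lower (56.6%), with GCLC (0.48 ± 0.044) and HMOX1 (0.35 ± 0.081) higher, and GSR (-0.73 ± 0.028), SLC7A11 (-0.51 ± 0.078), SRXN1 (-0.31 ± 0.034) and GCLM (-0.26 ± 0.046) lower, all at an adjusted p of 0.000354 or less. NFE2L2 (-0.071 ± 0.035, adjusted p = 0.0881), TXNRD1 (0.016 ± 0.026, adjusted p = 0.62) and NQO1 (0.069 ± 0.035, adjusted p = 0.0966) were not called. Total-count scaling made this 4 higher and 4 lower, adding TXNRD1 (adjusted p = 0.000661) and NQO1 (0.000502). NQO1 was also called higher without olaparib replicate C (0.00159) or combination replicate C (0.0238).

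Talazoparib on top of enzalutamide called 0 higher and 5 lower (34.4% of all genes), led by SLC7A11 (-1.61 ± 0.069, adjusted p = 1.94e-11, edgeR) and GCLM (-0.45 ± 0.044, adjusted p = 4.1e-10). NQO1 (-0.32 ± 0.034, adjusted p = 4.58e-09), TXNRD1 (-0.18 ± 0.026, adjusted p = 6.33e-07) and NFE2L2 (-0.15 ± 0.035, adjusted p = 0.00108) were the others. GSR, SRXN1 and HMOX1 were not called, with log2 differences of -0.031, -0.064 and -0.08. GCLC was close to the threshold there (0.10 ± 0.043, adjusted p = 0.0638), and RLE scaling, which called it higher (0.0496), made the split 1 higher and 5 lower. GCLC was called in 6 alternatives in all, such as with DESeq2 (0.0488) and without combination replicate C (0.0486). Enzalutamide on top of talazoparib called 3 higher and 5 lower (58.8%). GSR fell most (-0.67 ± 0.027, adjusted p = 2.48e-21), and GCLC rose most (0.33 ± 0.043, adjusted p = 3.52e-08). NQO1 was higher (0.19 ± 0.035, adjusted p = 2.15e-05). SRXN1 (-0.21 ± 0.033, adjusted p = 1.15e-06), GCLM (-0.19 ± 0.044, adjusted p = 0.000302), NFE2L2 (-0.18 ± 0.035, adjusted p = 4.35e-05) and TXNRD1 (-0.13 ± 0.026, adjusted p = 4.18e-05) were lower, and the TXNRD1 call was lost under total-count scaling (0.0731). SLC7A11 had a log2 difference of 0.038 ± 0.071 (interval -0.11 to 0.19, adjusted p = 0.672). It fell when abiraterone was added to olaparib, and whether these changes differ was not tested. HMOX1 was higher by 0.24 ± 0.079 (adjusted p = 0.00864), a call lost without combination replicate A (0.0633).

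The drugs of a class were given at doses that differ between them. Enzalutamide against abiraterone called 2 higher and 0 lower (19.8% of all genes), and these were SLC7A11 and NQO1, given above. For the other 7 genes the log2 differences lay between -0.06 (GSR, adjusted p = 0.133) and 0.094 (GCLM, adjusted p = 0.135), and GSR passed the threshold without abiraterone replicate B (0.0449). Talazoparib against olaparib called 1 higher, TXNRD1 (0.095 ± 0.026, adjusted p = 0.0177, edgeR), and 1 lower, GSR (-0.11 ± 0.027, adjusted p = 0.00907), where 8.36% of all genes were called. The TXNRD1 call was lost without olaparib replicate A (0.173) or talazoparib replicate C (0.2) and with only these groups in the fit (0.0509), and the GSR call without olaparib replicate C (0.0812), talazoparib replicate B (0.0957) or talazoparib replicate C (0.0691). SLC7A11 had a log2 difference, talazoparib minus olaparib, of 0.18 ± 0.073 (interval 0.025 to 0.34, adjusted p = 0.156) and was called without talazoparib replicate A (0.0223) or without a filter on low counts (0.0303). The other 6 genes had log2 differences between -0.077 (GCLM) and 0.045 (GCLC).

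The time course followed the olaparib response over dose and time. On day 1, olaparib at 1 µM called 1 member higher and 3 lower (15.8% of all genes), and at 5 µM 2 higher and 6 lower (45%; 1 higher and 6 lower under RLE scaling). On day 5 these were 0 higher and 4 lower at 1 µM (46.3%) and 1 higher and 7 lower at 5 µM (68.2%). The vehicle alone changed little, with 1 higher and 0 lower between day 5 and day 1 (24.5%), and NQO1 was the one (0.13 ± 0.024, adjusted p = 3.68e-05, edgeR). Under total-count scaling TXNRD1 was called higher there as well (0.0306). Treatments of 1 day share their DMSO libraries, as do those of 5 days.

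**Figure D5:**
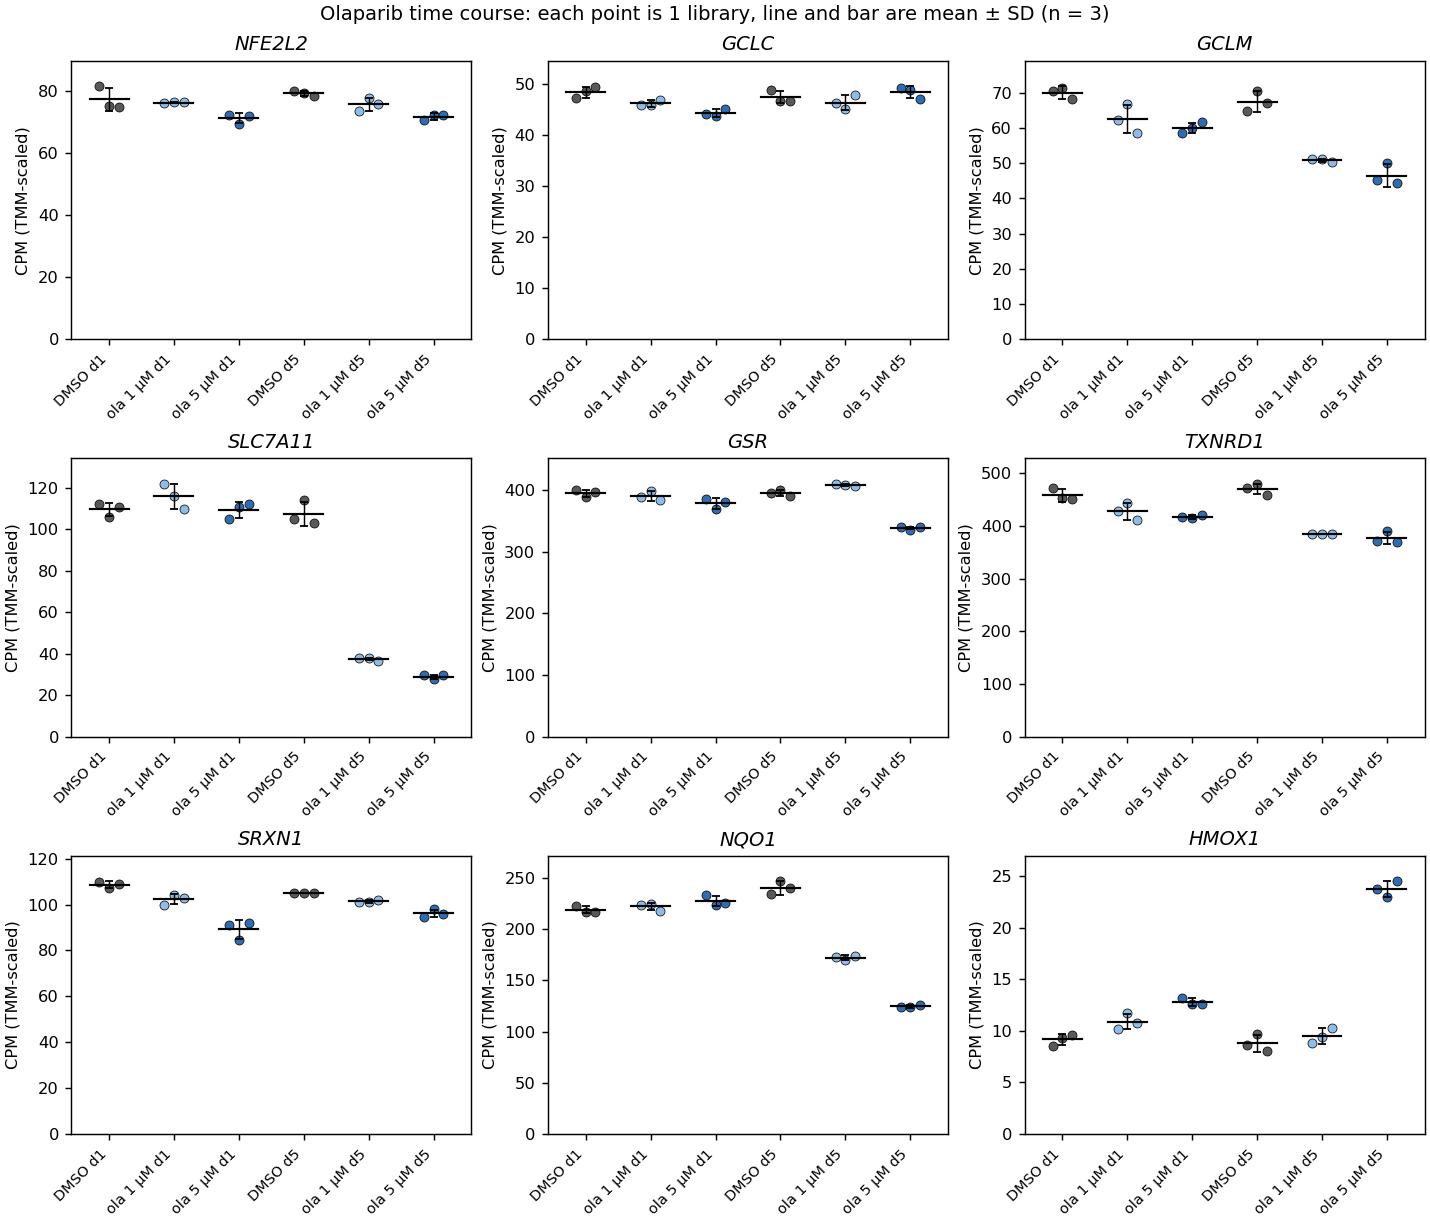
Level of each gene (CPM, TMM-scaled, axis from 0) in the 18 time course libraries, 1 point per library, with the mean and SD of each group of 3. SLC7A11 and NQO1 lie near their DMSO levels on day 1 and below them on day 5 with both doses, and HMOX1 is highest with 5 µM on day 5 (23 to 24.5 CPM).

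SLC7A11 was lower on day 5 and not on day 1. On day 1 it was 112, 106 and 111 CPM in DMSO, 122, 116 and 110 CPM at 1 µM and 105, 111 and 112 CPM at 5 µM, and the groups overlapped. The log2 fold changes were 0.082 ± 0.037 (adjusted p = 0.153, edgeR) and -0.0069 ± 0.038 (adjusted p = 0.905). The value at 1 µM was called higher without olaparib 1 µM replicate 3 (adjusted p = 0.0388). On day 5 DMSO libraries had 105, 114 and 103 CPM, those at 1 µM 37.7, 37.7 and 36.7 CPM and those at 5 µM 29.5, 27.9 and 29.6 CPM, without overlap. These are log2 fold changes of -1.52 ± 0.042 (adjusted p = 1.38e-20) and -1.89 ± 0.043 (adjusted p = 2.69e-23). The olaparib effect differed between days by -1.60 ± 0.056 at 1 µM (adjusted p = 1.51e-17) and by -1.88 ± 0.058 at 5 µM (adjusted p = 5.29e-20).

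NQO1 was lower on day 5 as well. It was 217 to 223 CPM in DMSO, 218 to 225 CPM at 1 µM and 224 to 233 CPM at 5 µM on day 1, with a call at 5 µM only (0.058 ± 0.024, adjusted p = 0.0451, edgeR). This call was lost in 9 of 13 alternatives, among them the runs without DMSO replicate 2 or 3 (adjusted p = 0.122 and 0.139) or 5 µM replicate 1 or 3 (0.241 and 0.0522). On day 5 it was 234, 247 and 240 CPM in DMSO, 173, 170 and 174 CPM at 1 µM (-0.48 ± 0.024, adjusted p = 6.89e-19) and 124, 124 and 126 CPM at 5 µM (-0.95 ± 0.024, adjusted p = 7.36e-29). At 5 µM NQO1 fell by 48.1%. The effect differed between days at both doses (-0.50 ± 0.034, adjusted p = 1.58e-14, and -1.005 ± 0.034, adjusted p = 1.52e-24), and between doses on day 5 (-0.47 ± 0.025, adjusted p = 1.15e-18).

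HMOX1 moved the other way. On day 1 it had 8.55, 9.34 and 9.64 CPM in DMSO, 10.2, 11.7 and 10.8 CPM at 1 µM (0.25 ± 0.07, adjusted p = 0.0121, edgeR) and 13.2, 12.6 and 12.6 CPM at 5 µM (0.48 ± 0.069, adjusted p = 3.6e-07). The call at 1 µM was lost without DMSO replicate 1 (0.0897) or 1 µM replicate 2 (0.0947). On day 5 the DMSO libraries had 8.64, 9.69 and 8.03 CPM, and those at 1 µM 8.82, 9.43 and 10.3 CPM, which overlapped (0.12 ± 0.072, adjusted p = 0.189). At 5 µM they had 23.8, 23 and 24.5 CPM, 2.71-fold the DMSO level (1.44 ± 0.064, adjusted p = 3.81e-21). The 5 µM dose was above 1 µM by 1.32 ± 0.065 on day 5 (adjusted p = 1.64e-19) and by 0.23 ± 0.067 on day 1 (adjusted p = 0.00724), the latter lost without 1 µM replicate 1 (0.0598). Without DMSO replicate 2, HMOX1 was also called higher at 1 µM on day 5 (0.0458). The 5 µM effect differed between days by 0.96 ± 0.095 (adjusted p = 5.82e-11), and the 1 µM effect by -0.13 ± 0.10 (adjusted p = 0.376).

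GCLM was lower with olaparib at both doses and on both days. It was 70.6, 71.5 and 68.1 CPM in DMSO on day 1, 62.2, 66.8 and 58.7 CPM at 1 µM (-0.16 ± 0.043, adjusted p = 0.0115, edgeR) and 58.7, 60 and 61.6 CPM at 5 µM (-0.22 ± 0.044, adjusted p = 0.000215). The 1 µM call was lost without DMSO replicate 1 (0.0597), DMSO replicate 2 (0.055) or 1 µM replicate 3 (0.0651). On day 5 it was 64.7, 70.6 and 67.2 CPM in DMSO, 51.1, 51.1 and 50.4 CPM at 1 µM (-0.41 ± 0.045, adjusted p = 8.17e-08) and 45.1, 50.1 and 44.3 CPM at 5 µM (-0.54 ± 0.045, adjusted p = 3.79e-10). The effect was larger on day 5 at 1 µM (-0.24 ± 0.062, adjusted p = 0.00434) and at 5 µM (-0.31 ± 0.063, adjusted p = 2e-04). GCLC stayed within 43.7 to 49.4 CPM in all 18 libraries and was called only at 5 µM on day 1 (-0.13 ± 0.032, adjusted p = 0.00115). The ratio of GCLC to GCLM was 0.705 ± 0.0469 in DMSO on day 5, 0.913 ± 0.0339 at 1 µM and 1.04 ± 0.061 at 5 µM, and on day 1 the group means lay between 0.692 and 0.742.

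TXNRD1 was lower with olaparib at both doses and on both days. Its levels were 450 to 471 CPM in DMSO on day 1 and 459 to 479 CPM on day 5, with log2 fold changes of -0.099 ± 0.023 and -0.14 ± 0.024 on day 1 (adjusted p = 0.00306 and 1.25e-05, edgeR). On day 5 they were -0.29 ± 0.024 and -0.32 ± 0.024 (adjusted p = 1.88e-12 and 4.85e-14). The 1 µM call on day 1 was lost without 1 µM replicate 3 (0.0532). GSR was not called at 1 µM (-0.018 ± 0.02 on day 1 and 0.046 ± 0.02 on day 5, adjusted p = 0.628 and 0.0562). On day 5 it was called higher at 1 µM in 3 alternatives, with a stricter filter on low counts (0.0243), with DESeq2 (0.0491) and with only the groups compared in the fit (0.026). It fell at 5 µM on day 5, from 396, 400 and 391 to 340, 336 and 340 CPM (-0.23 ± 0.02, adjusted p = 1.44e-12). On day 1 its change at 5 µM was small (-0.062 ± 0.02, adjusted p = 0.00938), and the call was lost under total-count scaling (0.566), without a filter (0.123) and without 5 µM replicate 2 (0.111).

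SRXN1 was lowest at 5 µM on day 1. At 5 µM it had 91.2, 84.4 and 91.9 CPM on day 1 against 110, 107 and 109 CPM in DMSO (-0.28 ± 0.028, adjusted p = 1.54e-10, edgeR). On day 5 it had 94.5, 97.9 and 95.9 CPM against 105 CPM in each DMSO library (-0.13 ± 0.028, adjusted p = 0.000146). At 1 µM on day 1 its log2 fold change was -0.086 ± 0.028 (adjusted p = 0.0311), a call lost under total-count scaling (0.131), without a filter (0.0785), without DMSO replicate 1 (0.109) or 3 (0.0879) and without 1 µM replicate 1 (0.142) or 3 (0.0745). At 1 µM on day 5 SRXN1 was not called (-0.054 ± 0.028, adjusted p = 0.122), and total-count scaling called it lower (0.0177). NFE2L2 was called lower at 5 µM, with 72.4, 69.4 and 72.2 CPM on day 1 (-0.12 ± 0.03, adjusted p = 0.00187, and 0.0544 under total-count scaling) and 70.6, 72.4 and 72.5 CPM on day 5 (-0.14 ± 0.03, adjusted p = 7.13e-05). At 1 µM on day 5 it was -0.066 ± 0.03 (adjusted p = 0.0718), which passed the threshold without 1 µM replicate 2 (0.0378) and under total-count scaling (0.00986).

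Dose was compared directly within each day. On day 1, 1 member was higher and 2 lower at 5 µM than at 1 µM (28.8% of all genes), namely HMOX1, and SRXN1 (-0.20 ± 0.028, adjusted p = 8.98e-07, edgeR) and NFE2L2 (-0.098 ± 0.03, adjusted p = 0.0129, lost without 5 µM replicate 2 at 0.0878). Total-count scaling made this 2 higher and 2 lower. Without 1 µM replicate 3, SLC7A11 (0.0125) and TXNRD1 (0.0466) were called lower as well. On day 5, 1 was higher and 6 were lower (53.6% of all genes). Beyond HMOX1 and NQO1, these were SLC7A11 (-0.36 ± 0.048, adjusted p = 3.2e-07), GSR (-0.27 ± 0.02, adjusted p = 2.34e-14), GCLM (-0.13 ± 0.047, adjusted p = 0.0248), SRXN1 (-0.074 ± 0.029, adjusted p = 0.0272) and NFE2L2 (-0.079 ± 0.031, adjusted p = 0.0297). The last 3 calls were lost without single libraries, GCLM without 1 µM replicate 1 or 2 or 5 µM replicate 1 or 3 (adjusted p 0.0629 to 0.168), SRXN1 without 1 µM replicate 1 or 3 or 5 µM replicate 1 or 3 (0.0558 to 0.179), and NFE2L2 without 1 µM replicate 2 or 3 or any 5 µM library (0.0582 to 0.184). SRXN1 and NFE2L2 were also lost without a filter on low counts (0.0608 and 0.0552), and NFE2L2 with DESeq2 (0.0577). Without 5 µM replicate 3, GCLC was called higher (0.0374). Under total-count scaling TXNRD1 was called lower on day 5 (0.000541), and the split became 1 higher and 7 lower.

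The change of the olaparib effect from day 1 to day 5 was tested as an interaction. At 1 µM 0 members were higher and 4 lower (29.8% of all genes), and at 5 µM 3 were higher and 5 lower (54.9%). SLC7A11, NQO1, GCLM and HMOX1 have been given. TXNRD1 was lower at both doses (-0.19 ± 0.033, adjusted p = 2.37e-05, and -0.18 ± 0.033, adjusted p = 1.77e-05, edgeR), and GSR at 5 µM (-0.16 ± 0.028, adjusted p = 5.95e-06). GCLC (0.15 ± 0.045, adjusted p = 0.004) and SRXN1 (0.16 ± 0.04, adjusted p = 0.00123) were higher at 5 µM on day 5 relative to day 1. Both were lost under total-count scaling (adjusted p = 0.676 and 0.614), where the median of all genes was -0.153 in place of -0.0223 and the split became 1 higher and 6 lower.

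Olaparib at 1 µM for 5 days was measured in both experiments. A joint fit of the 39 libraries tested for a difference between the 2 olaparib effects. There edgeR called 0 of the 9 genes (1.94% of all genes), and DESeq2 called 0. In edgeR 1 member, GSR, had an unadjusted p under 0.05, beside 2584 of all 19392 genes tested. Side by side, the log2 fold changes in the panel and the time course were -1.64 and -1.52 for SLC7A11, -0.40 and -0.48 for NQO1, -0.40 and -0.41 for GCLM, and -0.23 and -0.29 for TXNRD1. The widest interval of a difference among these 4 was that of SLC7A11 (-0.31 to 0.047). The starting level of SLC7A11 differed, with 176 to 190 CPM in panel DMSO and 103 to 114 CPM in DMSO on day 5 of the time course, scaled separately, and what separates the experiments was not tested.

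Across the 13 group means, centred within each experiment, some members varied together. GCLM and TXNRD1 had a Pearson correlation of 0.922, NQO1 and SLC7A11 of 0.899, and GCLM and SLC7A11 of 0.891. GSR and SRXN1 had 0.801, while GSR and GCLC had -0.878 and NFE2L2 correlated best with SRXN1 (0.782). HMOX1 was negative with every member but GCLC (0.314). These are descriptions over 13 groups that share DMSO libraries and scaling. Among 12374 genes with a mean of at least 100 counts tested in both experiments, those whose pattern was most like SLC7A11 were PCK2 (r = 0.987), mitochondrial phosphoenolpyruvate carboxykinase, and SLC6A9 (0.981), a glycine transporter. NQO1 was most like TAF9B (0.984) and BLVRA (0.983), biliverdin reductase A. For GSR these were ZC3H14 (0.99) and AADAT (0.989), for SRXN1 RRP9 (0.984) and NR2F6 (0.982), for GCLC SYBU (0.977) and CPNE3 (0.955), and for GCLM RGP1 (0.971) and TTC26 (0.97). HMOX1 was most like PEPD (0.975) and SNAI3-AS1 (0.944), TXNRD1 like TRIP4 (0.961) and ZFP91 (0.952), and NFE2L2 like VPS4A (0.928) and THAP1 (0.922).

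The wider pathway was described with 9 lists of other genes of NRF2 control, glutathione, thioredoxin, NADPH, iron and detoxification, of which 101 matched 1 gene ID and 86 were tested. Of these 86, abiraterone called 23 higher and 38 lower, enzalutamide 30 and 33, olaparib 31 and 17, and talazoparib 35 and 17. These were 70.9%, 73.3%, 55.8% and 60.5% of the list genes, beside 52.9%, 53.3%, 35.6% and 33.8% of all genes called. The list genes were not matched to all genes by count level, so these shares may differ for that reason, which was not tested. The combinations called 30 higher and 45 lower with abiraterone plus olaparib, and 28 and 38 with enzalutamide plus talazoparib, beside 62.2% and 62.4% of all genes. Under total-count scaling the calls were 29 higher and 36 lower with abiraterone, 34 and 31 with enzalutamide, 27 and 20 with olaparib, and 28 and 20 with talazoparib. They were 31 and 40 with abiraterone plus olaparib and 33 and 35 with enzalutamide plus talazoparib. The calls among all genes moved the same way under this scaling, from 4803 higher of 9853 to 5863 of 9768 with abiraterone, from 5028 of 9919 to 5903 of 9984 with enzalutamide, and from 3655 of 6638 to 2885 of 6714 with olaparib. They went from 3435 higher of 6300 to 2553 of 6384 with talazoparib, from 5785 of 11581 to 6324 of 11548 with abiraterone plus olaparib, and from 5808 of 11630 to 6251 of 11562 with enzalutamide plus talazoparib. In the time course, olaparib called 19 higher and 10 lower at 1 µM and 31 and 22 at 5 µM on day 1 (23 and 6, and 40 and 17, under total-count scaling). On day 5 it called 43 and 23 at 1 µM and 47 and 29 at 5 µM (39 and 24, and 43 and 33, under total-count scaling). Among all genes that scaling changed the calls on day 1 from 1166 higher of 2928 to 1598 of 2667 at 1 µM and from 3997 of 8333 to 5139 of 8519 at 5 µM. The day 5 calls went from 4324 higher of 8566 to 3917 of 8688 and from 6359 of 12627 to 5416 of 12791. By list, abiraterone plus olaparib called 1 higher and 6 lower of 7 genes of NADPH supply, 3 and 5 of 9 of other glutathione synthesis and breakdown, 1 and 4 of 7 glutathione peroxidases and glutaredoxins, 6 and 4 of 12 glutathione transferases, and 7 and 6 of 14 other thioredoxin and peroxiredoxin genes. It called 4 and 6 of 12 genes of NRF2 control, 4 and 5 of 9 of iron and heme, 3 and 7 of 12 of other detoxification and export, and 1 and 2 of 4 of superoxide and peroxide removal. Of all genes, 31.1% were called higher and 31.1% lower in this comparison. Olaparib at 5 µM on day 5 called 10 higher and 1 lower of the thioredoxin and peroxiredoxin genes, 8 and 2 of the glutathione transferases, 8 and 3 of the genes of NRF2 control, 3 and 4 of NADPH supply, and 4 and 4 of other glutathione synthesis and breakdown. It called 3 and 4 of the glutathione peroxidases and glutaredoxins, 4 and 3 of iron and heme, 5 and 6 of other detoxification and export, and 2 and 2 of superoxide and peroxide removal, where 34.4% of all genes were called higher and 33.9% lower. The median log2 fold change of the 86 genes was -0.124 with abiraterone plus olaparib and 0.146 with olaparib at 5 µM on day 5, where those of all genes were 0.0077 and -0.0083. The share called ranged from 33.7% to 88.4% of the list genes in these 10 comparisons, beside 15.8% and 68.2% of all genes in the same 2 comparisons, and 45% and 46.3% of all genes were called at 5 µM on day 1 and at 1 µM on day 5.

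Genes named here had the largest rises and falls of the lists in a treatment. CHAC1, which degrades glutathione, fell with abiraterone and with each PARPi, and furthest in the combination of abiraterone and olaparib. It had 11.8 ± 0.88 CPM in panel DMSO (SD, n = 3), 4.11 ± 0.918 with abiraterone, 3.62 ± 0.335 with olaparib, 3.7 ± 0.451 with talazoparib and 1.39 ± 0.202 with abiraterone plus olaparib (-3.07 ± 0.14, adjusted p = 9.28e-20, edgeR). With enzalutamide plus talazoparib it had 2.98 ± 0.159 CPM (-1.98 ± 0.12, adjusted p = 5.11e-16). Its log2 fold changes on day 5 of the time course were -2.16 ± 0.10 at 1 µM and -2.91 ± 0.11 at 5 µM (adjusted p = 8.98e-20 and 1.88e-23). MTHFD2, a mitochondrial folate enzyme that supplies NADPH, had log2 fold changes of -0.69 ± 0.03 for olaparib (adjusted p = 4.37e-19) and -1.32 ± 0.031 for abiraterone plus olaparib (adjusted p = 3.08e-28). GPX8, a peroxidase of the endoplasmic reticulum, was lower with olaparib (-0.79 ± 0.073) and talazoparib (-0.58 ± 0.071), with abiraterone plus olaparib (-1.27 ± 0.078), and at 1 µM (-0.65 ± 0.057) and 5 µM (-2.05 ± 0.068) on day 5, with adjusted p of 5.08e-08 or less. CBR3, a carbonyl reductase, fell to 0.935 ± 0.0628 CPM at 5 µM on day 5 from 7.28 ± 0.318 in DMSO (-2.96 ± 0.12, adjusted p = 2.19e-22).

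Sestrins, which act in the reduction of peroxides and in nutrient sensing, rose in several treatments. SESN3 went from 39.4 ± 3.03 CPM in panel DMSO to 164 ± 10.1 with abiraterone, 129 ± 6.35 with enzalutamide and 268 ± 3.78 with abiraterone plus olaparib (2.77 ± 0.055, adjusted p = 7.76e-21, edgeR). SESN1, a p53 target, was already high on day 1 of olaparib, at 57.8 ± 0.439 CPM with 5 µM against 17.1 ± 0.619 in DMSO (1.76 ± 0.038, adjusted p = 4.9e-30). SESN2 rose on day 1 too, by 0.72 ± 0.05 at 1 µM and 1.49 ± 0.047 at 5 µM (adjusted p = 9.62e-14 and 5.69e-25). TXNIP, which binds and inhibits thioredoxin, was higher in all 6 panel treatments, from 60.2 ± 11.1 CPM in DMSO to 202 ± 8.53 with enzalutamide plus talazoparib (1.76 ± 0.11, adjusted p = 8.85e-10). FTL, ferritin light chain, rose with talazoparib (0.79 ± 0.038, adjusted p = 1.06e-15), and its value is uncertain because near-identical pseudogene copies can share its reads.

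Abiraterone and enzalutamide each called 4 higher and 3 lower of 12 glutathione transferases (58.3%), and 4 and 5 and 3 and 4 of 12 genes of other detoxification and export (75% and 58.3%), beside 52.9% and 53.3% of all genes. GSTA1, a glutathione transferase that shares reads with close paralogs and is uncertain for that reason, went from 3.91 ± 0.543 CPM in DMSO to 15.4 ± 1.22 with abiraterone (1.98 ± 0.10, adjusted p = 2.54e-18, edgeR) and 13.3 ± 0.754 with enzalutamide (1.77 ± 0.10, adjusted p = 6.36e-17). ABCC4, an exporter of organic anions, fell from 878 ± 16.2 to 352 ± 9.38 CPM with abiraterone (-1.32 ± 0.028, adjusted p = 9.9e-30) and 238 ± 10.6 CPM with enzalutamide (-1.88 ± 0.028, adjusted p = 3.41e-34). ABCC1, which exports glutathione conjugates, fell too (-1.06 ± 0.029 and -1.26 ± 0.029, adjusted p = 2.81e-26 and 1.44e-28). GLRX2, a mitochondrial glutaredoxin, was lower with enzalutamide (-1.10 ± 0.057, adjusted p = 3.45e-18), and SLC6A6, the taurine transporter, was higher with abiraterone (1.11 ± 0.095, adjusted p = 2.47e-12). The departures of ABCC4 were positive for abiraterone plus olaparib (0.70 ± 0.039, adjusted p = 2.78e-15) and for enzalutamide plus talazoparib (0.80 ± 0.039, adjusted p = 2e-16), so it fell less than the sum of the drugs in both.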

How the data were processed

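RNA from C4-2B cells was sequenced as 39 libraries with a stranded mRNA kit. According to the study's methods, the authors trimmed reads with Trim Galore, aligned them with STAR to GRCh38 and quantified genes with Salmon against GENCODE in the nf-core/rnaseq pipeline. The authors deposited 1 table of 63187 genes by 39 libraries in raw estimated counts written as whole numbers, and how Salmon's estimates were rounded is not given in the sources used here. Symbols and coordinates were taken from an earlier GENCODE release on GRCh38, which named 62666 IDs. The other 521 IDs held 0.12% of the counts and stayed in the tests.

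Groups and replicate numbers came from the sample labels. Genes passing edgeR's filterByExpr (18625 in the panel and 18502 in the time course) were tested with edgeR 4.0.16 in R 4.3.3 (quasi-likelihood, TMM scaling, robust dispersions, Benjamini-Hochberg adjustment over all genes tested, threshold 0.05), with all groups of an experiment in 1 fit and no covariates. The departure was the combination minus both single drugs plus DMSO on the log2 scale, and the panel and time course were compared in a joint fit. Intervals are 95% intervals from the same fit. Levels are CPM on TMM-scaled library sizes, and per-length levels divide them by the canonical transcript. Alternatives were RLE and total-count scaling, no filter, a filter of at least 1 CPM in 3 libraries, DESeq2 1.42.0, only the groups compared, a replicate block, and leaving out each library.

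By the rule for named genes, each member called in a comparison is named, and members not called are given by value or range in most comparisons. Of the wider lists, the 3 largest rises and 3 largest falls per treatment among called genes whose higher group averaged 100 counts or more are named, and for each member the 2 genes with the highest Pearson correlation over the 13 group means. The members and lists were chosen with earlier results of these data known. PCR reads without molecular identifiers are not independent molecules.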

Additional observations from a re-analysis of the deposited data

Results flagged for a closer look

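The olaparib effect (log2 fold change against DMSO of the same day) differed between day 5 and day 1, by the test of that difference itself in edgeR, for 4 of the 9 genes at 1 µM and 8 at 5 µM, beside 29.8% and 54.9% of all genes. These values are day 5 minus day 1, with the SE and adjusted p. At 1 µM the differences were -1.60 ± 0.056 for SLC7A11 (adjusted p = 1.51e-17), -0.50 ± 0.034 for NQO1 (adjusted p = 1.58e-14), -0.24 ± 0.062 for GCLM (adjusted p = 0.00434) and -0.19 ± 0.033 for TXNRD1 (adjusted p = 2.37e-05).

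At 5 µM the falls on day 5 relative to day 1 were -1.88 ± 0.058 for SLC7A11 (adjusted p = 5.29e-20), -1.005 ± 0.034 for NQO1 (adjusted p = 1.52e-24), -0.31 ± 0.063 for GCLM (adjusted p = 2e-04), -0.18 ± 0.033 for TXNRD1 (adjusted p = 1.77e-05) and -0.16 ± 0.028 for GSR (adjusted p = 5.95e-06). The rises were 0.96 ± 0.095 for HMOX1 (adjusted p = 5.82e-11), 0.15 ± 0.045 for GCLC (adjusted p = 0.004) and 0.16 ± 0.04 for SRXN1 (adjusted p = 0.00123), of which the last 2 were lost under total-count scaling (adjusted p = 0.676 and 0.614). NFE2L2 was not called at either dose (-0.048 ± 0.043 and -0.029 ± 0.043, adjusted p = 0.447 and 0.598), and total-count scaling called it lower at 5 µM (0.00102). The 2 doses share the DMSO libraries of each day.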

How the results depend on the processing

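Over 24 comparisons and 9 genes, 125 of 216 values were called, and 99 of these calls held in every alternative run while 26 were lost in at least 1. Of 91 values that were not called, 22 were called in some alternative. No member value changed its sign while called. For the departure of enzalutamide plus talazoparib, 0 members were called, and 1 was called under total-count scaling, with the filter of at least 1 CPM and with DESeq2. Leaving out each library in turn gave 0 to 1. For talazoparib against olaparib the count of 2 became 1 with only the groups compared, and ranged from 0 to 3 leaving out single libraries. For DMSO on day 5 against day 1 the count of 1 became 2 under total-count scaling. Leaving out single libraries gave 1 to 3 in place of 4 for olaparib 1 µM on day 1, 2 to 5 in place of 3 for 5 µM against 1 µM on day 1, and 4 to 6 in place of 7 for the same doses on day 5. ABCC4 in olaparib 5 µM on day 5 reversed under total-count scaling (0.059 became -0.024, adjusted p = 0.226).

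With the replicate number as a block, 7 members were called in place of 8 for abiraterone (NQO1, adjusted p = 0.05) and for olaparib 5 µM on day 1 (NQO1, adjusted p = 0.0537), and the counts of the other 22 comparisons were as without the block. Deviations of libraries with the same number had a mean correlation of 0.000728 in the panel and -0.0466 in the time course. For different numbers it was -0.000387 and 0.0236. Single pairs with the same number reached 0.201 and 0.24. In the panel 6 of 21 libraries correlated best with their own number, and in the time course 0 of 18. Whether libraries share a culture or batch was not tested. At these depths the least abundant member, HMOX1, had a log2 SE of 0.064 to 0.083 against DMSO.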

Other observations

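For abiraterone plus olaparib 6 of 86 genes were above the sum and 16 below it, and for enzalutamide plus talazoparib 5 and 20, with 25.6% and 29.1% called beside 12.8% and 12.6% of all genes (edgeR). Among all genes there were 882 above and 1504 below, and 991 above and 1355 below. All genes were not matched to the list genes by count level. Under total-count scaling the list genes were 7 above and 15 below, and 6 above and 16 below, while among all genes 1026 of 2280 and 1216 of 2160 called departures were above the sum. With a filter of at least 1 CPM in 3 libraries 1216 of 2490 and 1292 of 2388 called departures among all genes were above it. GSTA1 was below the sum in both combinations, with departures of -0.61 ± 0.14 (adjusted p = 0.00248) and -0.62 ± 0.14 (adjusted p = 0.00227). FTL, ferritin light chain, was too (-0.28 ± 0.053, adjusted p = 0.000505, and -0.35 ± 0.053, adjusted p = 4.19e-05). ABCC1 was above the sum in both (0.22 ± 0.04, adjusted p = 0.000263, and 0.34 ± 0.04, adjusted p = 3.02e-07). MTHFD2 was above the sum with abiraterone plus olaparib (0.18 ± 0.044, adjusted p = 0.00525) and below it with enzalutamide plus talazoparib (-0.29 ± 0.043, adjusted p = 1.27e-05), and this difference was not tested. SESN2 was above the sum with abiraterone plus olaparib (0.67 ± 0.077, adjusted p = 1.43e-07), and SESN1 with enzalutamide plus talazoparib (0.34 ± 0.086, adjusted p = 0.00603).

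On day 1 of olaparib, the largest falls of the lists were those of CHAC2, MGST1, TFRC and GLRX3. TFRC, the transferrin receptor, was lower at 5 µM on day 1 (-0.34 ± 0.024, adjusted p = 3.61e-11, edgeR), and on day 5 its log2 fold change was 0.001 ± 0.024 at 1 µM (adjusted p = 0.981) and -0.13 ± 0.024 at 5 µM (adjusted p = 4.51e-05). MGST1, a microsomal glutathione transferase, was -0.36 ± 0.028 at 5 µM on day 1 (adjusted p = 1.74e-13) and -0.52 ± 0.028 on day 5 (adjusted p = 8.41e-19). CHAC2, which breaks down glutathione, was -0.38 ± 0.076 and -1.04 ± 0.083 at 5 µM on days 1 and 5 (adjusted p = 8.21e-05 and 8.16e-14). GLRX3, a glutaredoxin that carries iron-sulfur clusters, was -0.18 ± 0.028 at 1 µM and -0.33 ± 0.029 at 5 µM on day 1 (adjusted p = 2.4e-05 and 4.72e-12).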
